A study of Rattus norvegicus with 24 samples.

Results

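The genes described here belong to nitric oxide and natriuretic peptide signalling and were measured in rat kidney: the nitric oxide synthases Nos1, Nos2 and Nos3, the arginine and methylarginine enzymes Ass1, Arg2, Ddah1 and Ddah2, the natriuretic peptide receptors Npr1 and Npr3, and the phosphodiesterase Pde5a. They were chosen by gene symbol, as every probe set on either array of the Affymetrix RAE230 pair to which the platform annotation gives one of these symbols and no other. Each gene had 1 such probe set, all on RAE230A, so the 10 genes stand against 13811 genes with a single-symbol probe set on the pair. A probe set assigned to Nos2 together with another symbol was left out by the same rule.

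RNA came from the left kidneys of male rats of 3 inbred strains. ET3x2 and ET3x1 are congenic substrains, known to carry chromosome 3 segments of the salt-resistant R rat on the S background, and S (SS/jr) is the Dahl salt-sensitive strain itself. Every rat ate chow with 0.4% NaCl until 39 to 41 days of age and then 2% NaCl for 28 days, and was 67 to 69 days old at tissue collection, so the raised salt intake is shared by all groups. Each strain had 4 pools, of 3 rats in ET3x2 (pools I to L), 3 rats in ET3x1 (pools E to H) and 2 rats in S (pools A to D), and each of the 12 pools was hybridised to both arrays. The ends of the congenic segments are not given in the sources used here.

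Nitric oxide is made from arginine by the nitric oxide synthases and raises cyclic GMP by activating soluble guanylate cyclase. Asymmetric dimethylarginine inhibits the synthases and is broken down by the dimethylarginine dimethylaminohydrolases, while arginases compete for arginine and argininosuccinate synthase helps to make it. Natriuretic peptides raise cyclic GMP through receptor guanylate cyclases, phosphodiesterase 5 breaks cyclic GMP down, and in the kidney both routes are known for promoting sodium excretion and vasodilation.

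None of the 10 genes passed the test in any comparison of strains. The values are log2 signals, and limma was run on the probe sets whose mean log2 signal reached the 30th percentile of their array. P-values were adjusted by the Benjamini-Hochberg method within each array and comparison, over 11106 such probe sets on RAE230A and 10693 on RAE230B. Of the 10 genes, 7 were above that level, and Nos1, Nos3 and Npr3 were not. An adjusted p under 0.05 was reached by 0 of 7 genes in ET3x2 against S, against 0.0810% of all probe sets tested on RAE230A, by 0 of 7 in ET3x1 against S, against 0.207%, and by 0 of 7 in ET3x2 against ET3x1, against 1.04%. At an unadjusted p under 0.05 there were 3 genes in ET3x2 against S (Ddah1, Ass1 and Arg2; background 11.4%), 1 gene in ET3x1 against S (Ddah1; background 13.2%) and 0 genes in ET3x2 against ET3x1 (background 15.0%).

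The pools of the compared strains did not overlap for 2 of the 7 genes in ET3x2 against S, with Ass1 higher and Ddah1 lower, where 4.15% of tested RAE230A probe sets were higher without overlap, 1.69% lower and 5.84% either. In ET3x1 against S this held for 1 gene, Ddah1, which was lower, where 4.83% of probe sets were higher, 2.14% lower and 6.97% either. In ET3x2 against ET3x1 it held for 0 genes, where 5.12% of probe sets were higher, 4.12% lower and 9.25% either.

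Taken singly, the confidence intervals limit the strain difference in array signal for these 7 genes. The 21 confidence intervals at 95% reached from 0.727-fold to 1.38-fold, and 4 of them did not hold a difference of 0. The median log2 difference of the 7 genes was −0.05 in ET3x2 against S, −0.11 in ET3x1 against S and 0.08 in ET3x2 against ET3x1, beside medians of 0.03, 0.0025 and 0.03 over all tested RAE230A probe sets. The mean was higher in ET3x2 than in ET3x1 for all 10 genes, 7 of them tested, while 58.4% of the tested RAE230A probe sets had that sign; with array weights Pde5a turned to −0.023, and leaving out 1 pool turned the sign for Nos1, Ddah1 or Pde5a. Against S, 3 of the 10 genes had a higher mean and 7 a lower one in each congenic strain, while 60.4% of the tested RAE230A probe sets were higher in ET3x2 and 50.8% in ET3x1, and both of these comparisons use the same S pools.

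**Figure D1:**
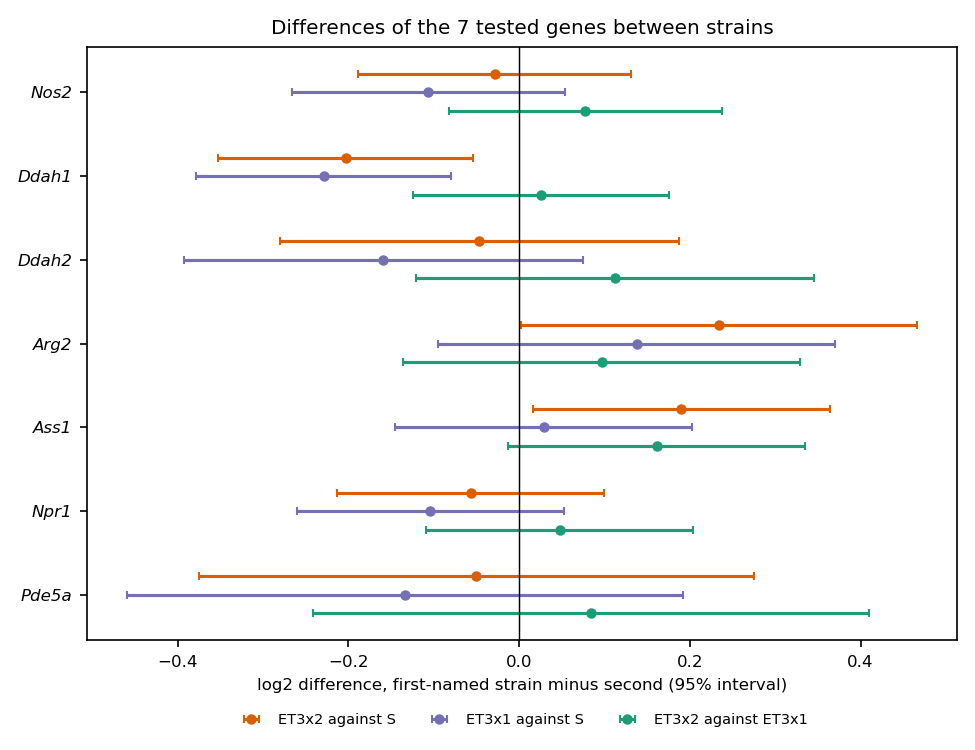
Log2 difference between strains (horizontal axis) for the 7 tested genes, with points for the fitted difference and bars for its 95% confidence interval. The bars of Ddah1 lie below 0 in both congenic strains against S, and those of Ass1 and Arg2 lie above 0 in ET3x2 against S; no adjusted p was under 0.05.

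Ddah1, on chromosome 2, encodes a hydrolase that breaks down asymmetric dimethylarginine and is abundant in proximal tubule. Its log2 signal was 13.15, 13.08, 12.95 and 12.91 in ET3x2 pools, 13.03, 13.06, 12.91 and 13.00 in ET3x1 pools, and 13.21, 13.18, 13.21 and 13.32 in S pools. All 8 congenic pools lay below all 4 S pools, an order seen in 0.153% of tested RAE230A probe sets, while 0.468% had the reverse order. The strain means were 13.03 ± 0.11 in ET3x2, 13.00 ± 0.068 in ET3x1 and 13.23 ± 0.060 in S (SD, n = 4 each). The log2 difference was −0.20 in ET3x2 against S (SE 0.070, 0.868-fold with a 95% interval of 0.783 to 0.963, limma adjusted p = 0.301). It was −0.23 in ET3x1 against S (SE 0.070, 0.853-fold with a 95% interval of 0.769 to 0.946, limma adjusted p = 0.215). The congenic strains differed from each other by 0.03 (95% interval −0.12 to 0.18, limma adjusted p = 0.895).

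Ddah2, on chromosome 20, encodes the related enzyme that is known mainly from vessels and immune cells. On the log2 scale Ddah2 read 9.07, 9.11, 9.20 and 9.05 in ET3x2 pools, 8.88, 9.40, 8.82 and 8.88 in ET3x1 pools, and 9.26, 9.08, 9.15 and 9.12 in S pools. In ET3x1, 3 pools lay below every pool of S, and pool F lay above every one. The difference in ET3x1 against S was −0.16 (SE 0.11, limma adjusted p = 0.540), and leaving out 1 pool moved it between −0.29 (without pool F, limma adjusted p = 0.107) and −0.10 (without pool G, limma adjusted p = 0.786). ET3x2 exceeded ET3x1 by 0.11 (limma adjusted p = 0.665), by 0.25 without pool F (limma adjusted p = 0.0798) and by 0.05 without pool G (limma adjusted p = 0.897), and differed from S by −0.05 (95% interval −0.28 to 0.19, limma adjusted p = 0.906).

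Ass1, on chromosome 3, encodes argininosuccinate synthase, the rate-limiting enzyme of arginine synthesis, which the kidney carries out in proximal tubule. Its log2 signal was 14.19, 14.11, 14.09 and 14.06 in ET3x2 pools, 14.06, 14.16, 13.80 and 13.79 in ET3x1 pools, and 13.97, 13.96, 13.93 and 13.83 in S pools. All ET3x2 pools lay above all S pools, while the ET3x1 pools overlapped with both. The log2 difference was 0.19 in ET3x2 against S (SE 0.082, 1.14-fold with a 95% interval of 1.01 to 1.29, limma adjusted p = 0.401). It was 0.03 in ET3x1 against S (limma adjusted p = 0.904) and 0.16 in ET3x2 against ET3x1 (limma adjusted p = 0.371). Ass1 shares its chromosome with the congenic segments. In the GRCr8 gene order, 1506 of the 1863 protein-coding genes of chromosome 3 lie between Ass1 and Edn3, the endothelin gene of the chromosome. Without the ends of the segments, whether Ass1 lies inside one was not determined.

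Arg2, on chromosome 6, encodes the mitochondrial arginase, which turns arginine into ornithine and urea. Arg2 had log2 signals of 9.82, 9.55, 9.70 and 9.69 in ET3x2 pools, 9.62, 9.84, 9.46 and 9.47 in ET3x1 pools, and 9.31, 9.28, 9.68 and 9.56 in S pools. The strains overlapped, with S pools A and B lowest. The difference in ET3x2 against S was 0.23 (SE 0.11, 95% interval 0.0016 to 0.47, limma adjusted p = 0.435), in ET3x1 against S 0.14 (limma adjusted p = 0.604) and in ET3x2 against ET3x1 0.10 (limma adjusted p = 0.714). Pools A, B and J also had the smallest loss of 5′ against 3′ actin signal on RAE230A, at −1.27, −1.27 and −1.14 on the log2 scale against −2.10 to −1.66 in the other pools. Without these 3 pools the Arg2 differences were 0.12 in ET3x2 against S and −0.02 in ET3x1 against S (limma adjusted p = 0.965 for the latter). Pools A and B were the lowest S pools for Arg2 and pool J the lowest ET3x2 pool. The cause of this change was not tested.

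**Figure D2:**
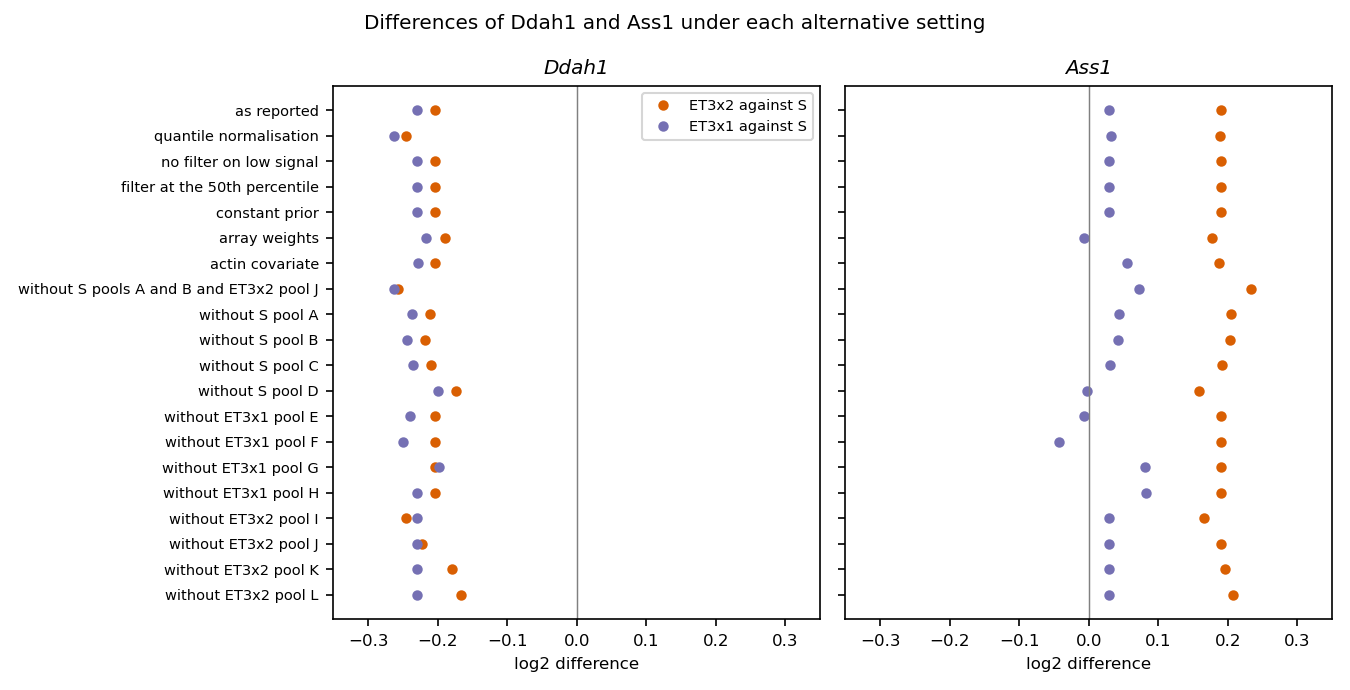
Log2 difference of Ddah1 and Ass1 (horizontal axis) against S in ET3x2 and ET3x1 under each processing alternative (vertical axis). Ddah1 lay between −0.26 and −0.17 in both congenic strains under every alternative shown, and its adjusted p was not under 0.05 in any of them.

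Among the nitric oxide synthases only Nos2, the inducible enzyme on chromosome 10, was above the signal level required for the test. Its log2 signal was 9.83, 9.66, 9.76 and 9.79 in ET3x2 pools, 9.73, 9.61, 9.70 and 9.69 in ET3x1 pools, and 9.71, 9.75, 9.75 and 9.95 in S pools. The strains overlapped, and S pool D was the highest of all. The difference was −0.03 in ET3x2 against S (95% interval −0.19 to 0.13, limma adjusted p = 0.917), −0.11 in ET3x1 against S (95% interval −0.27 to 0.05, limma adjusted p = 0.552) and 0.08 in ET3x2 against ET3x1 (limma adjusted p = 0.662).

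Nos1, on chromosome 12, encodes the neuronal synthase, known in kidney from the macula densa, and its mean log2 signal of 7.37 was under the level of 7.52 required on RAE230A. It read 7.38, 7.45, 7.43 and 7.61 in ET3x2 pools, 7.21, 7.38, 7.62 and 7.47 in ET3x1 pools, and 7.01, 7.27, 7.24 and 7.31 in S pools. All ET3x2 pools lay above all S pools, but shares of probe sets without overlap were taken only above the required level. With no filter on low signal, the difference was 0.26 in ET3x2 against S (limma adjusted p = 0.378) and 0.21 in ET3x1 against S (limma adjusted p = 0.387). At this level the background share of the signal is unknown, so no fold is given.

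Nos3, on chromosome 4, encodes the endothelial synthase and had the lowest mean log2 signal of the 10 probe sets, 5.97. It read 5.97, 6.11, 6.02 and 5.84 in ET3x2 pools, 5.78, 5.97, 5.71 and 5.94 in ET3x1 pools, and 6.05, 6.12, 6.03 and 6.13 in S pools. All ET3x1 pools lay below all S pools, and ET3x2 overlapped with both. Nos3 was under the level above which shares of probe sets without overlap were taken. The part of background in its signal is unknown. With no filter, the difference was −0.23 in ET3x1 against S (limma adjusted p = 0.202) and −0.10 in ET3x2 against S (limma adjusted p = 0.664).

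Npr1, on chromosome 2, encodes the guanylate cyclase receptor of atrial and B-type natriuretic peptides. On the log2 scale Npr1 read 8.55, 8.66, 8.75 and 8.71 in ET3x2 pools, 8.57, 8.67, 8.61 and 8.62 in ET3x1 pools, and 8.59, 8.80, 8.68 and 8.83 in S pools. The pools of all strains overlapped. The difference was −0.06 in ET3x2 against S (95% interval −0.21 to 0.10, limma adjusted p = 0.813), −0.10 in ET3x1 against S (95% interval −0.26 to 0.05, limma adjusted p = 0.550) and 0.05 in ET3x2 against ET3x1 (limma adjusted p = 0.799).

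Npr3, also on chromosome 2, encodes the clearance receptor, which removes natriuretic peptides, and its mean log2 signal of 6.81 was under the required level. It read 6.89, 6.78, 6.78 and 6.92 in ET3x2 pools, 6.65, 6.91, 6.63 and 6.78 in ET3x1 pools, and 6.89, 6.91, 6.93 and 6.65 in S pools. The strains overlapped, and with no filter the limma adjusted p was 0.995 in ET3x2 against S, 0.635 in ET3x1 against S and 0.633 in ET3x2 against ET3x1.

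Pde5a, on chromosome 2, encodes the phosphodiesterase that hydrolyses cyclic GMP and is the target of sildenafil. Pde5a had log2 signals of 7.84, 7.90, 7.81 and 8.03 in ET3x2 pools, 7.79, 7.31, 7.97 and 8.17 in ET3x1 pools, and 7.71, 8.07, 7.80 and 8.21 in S pools. Pool F of ET3x1 was the lowest, and the spread among pools was the widest of the tested genes. The difference was −0.05 in ET3x2 against S (95% interval −0.38 to 0.28, limma adjusted p = 0.926), −0.13 in ET3x1 against S (95% interval −0.46 to 0.19, limma adjusted p = 0.727) and 0.08 in ET3x2 against ET3x1 (limma adjusted p = 0.833).

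**Figure D3:**
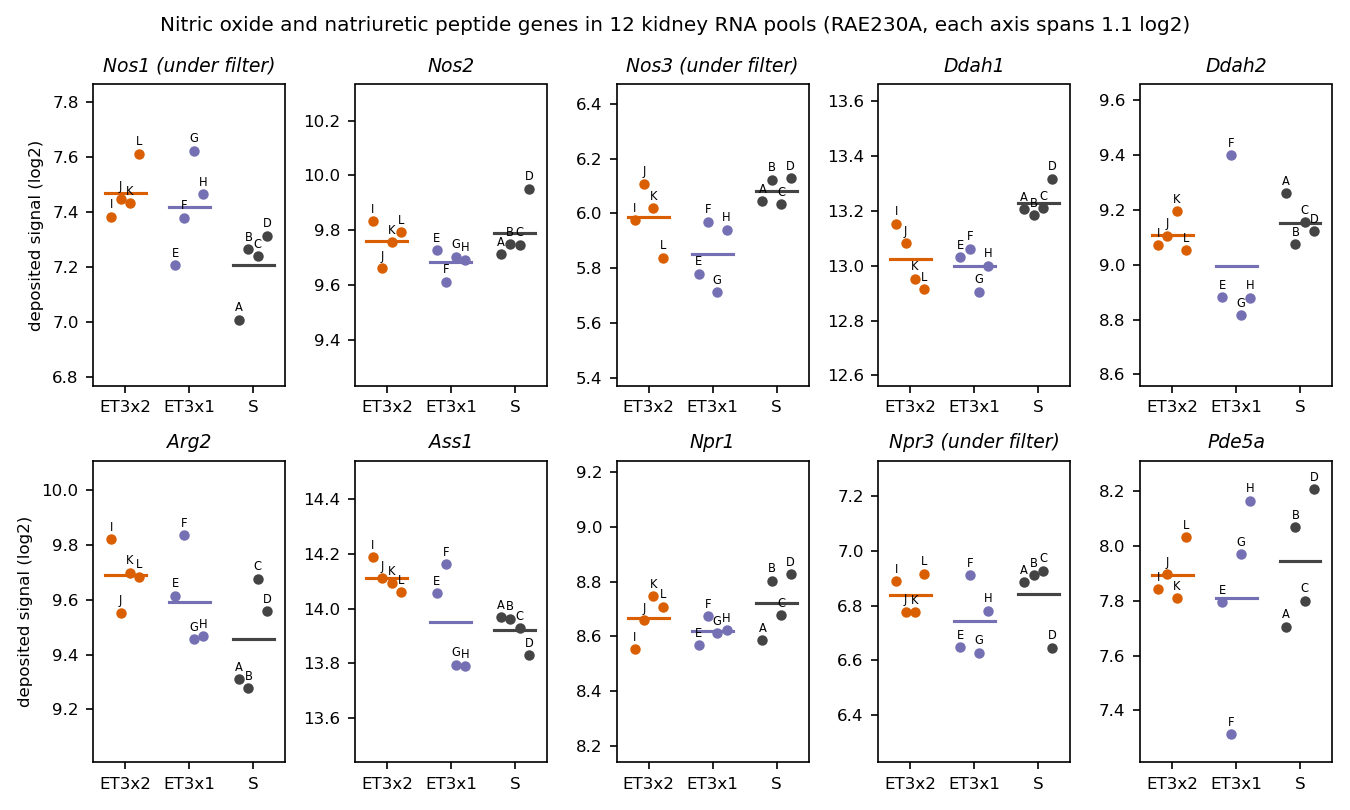
Log2 signal (vertical axis) of the 10 genes in each pool, with 1 panel per gene, points for pools and a line for the strain mean, in the order ET3x2, ET3x1 and S. The 8 congenic pools of Ddah1 lie below its 4 S pools, while most other genes overlap between strains.

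Whole kidney holds many cell types, and in these pools fewer cells of a type and less RNA per cell cannot be told apart. The markers of proximal tubule (6 of 6), thick ascending limb (5 of 5) and distal tubule and collecting duct (6 of 6) were above the required level, and those of adrenal gland were not (0 of 3). No marker passed the test between strains. The mean of the proximal tubule markers, centred per gene, ranged from −0.033 to 0.078 in ET3x2, from −0.133 to 0.042 in ET3x1 and from −0.075 to 0.097 in S. For endothelium, with 6 of 7 markers above the level, it ranged from −0.067 to 0.022 in ET3x2, from −0.13 to 0.132 in ET3x1 and from −0.069 to 0.104 in S. The distal tubule and collecting duct markers ranged from 0.058 to 0.094 in ET3x2, from −0.2 to 0.129 in ET3x1 and from −0.105 to 0.047 in S, so that ET3x2 lay above S. Those of smooth muscle and pericytes, with 5 of 6 above the level, ranged from 0.051 to 0.121 in ET3x2, from −0.181 to 0.03 in ET3x1 and from −0.156 to 0.156 in S, so that ET3x2 lay above ET3x1, the direction of the means of the 10 genes. In the other marker lists above the level, the pools of ET3x2 and ET3x1 overlapped. Thick ascending limb markers, for example, ranged from −0.17 to 0.042 in ET3x2 and from −0.028 to 0.235 in ET3x1. The part of any marker shift in the values of the genes was not tested.

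The rest of the pathway was described from a list of 58 genes, of which 48 had a single-symbol probe set and 37 were above the signal level. Each gene was counted by 1 probe set, that of highest mean signal, taken from RAE230A where a gene was above the level on both arrays. None passed the test: 0 of 37 in ET3x2 against S (background 0.344% of tested probe sets on both arrays), 0 of 37 in ET3x1 against S (0.440%) and 0 of 37 in ET3x2 against ET3x1 (1.48%). At an unadjusted p under 0.05 there were 4 genes in ET3x2 against S (background 10.9%), 1 in ET3x1 against S (11.8%) and 4 in ET3x2 against ET3x1 (13.1%). The median log2 difference of the 37 genes was 0.07, 0.01 and 0.04 in these comparisons, beside 0.02, −0.0047 and 0.03 over all tested probe sets. Some probe sets not counted differed more. A second one of Hsp90ab1 gave 1.31 in ET3x1 against S (SE 0.56, limma adjusted p = 0.339). In ET3x2 against ET3x1 it gave −1.56 (limma adjusted p = 0.207). The counted one gave −0.03 and −0.05. In ET3x1 against S, other probe sets of Cav1 and Gatm gave −0.35 and −0.23 (limma adjusted p = 0.457 and 0.337). Their counted ones gave −0.0035 and 0.18.

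Gucy1a1 and Gucy1b1 encode the subunits of soluble guanylate cyclase, the nitric oxide receptor. Gucy1a1 differed by −0.09 in ET3x2 against S, 0.15 in ET3x1 against S and −0.23 in ET3x2 against ET3x1 (limma adjusted p = 0.230), and a second probe set gave −0.18 in the last comparison (limma adjusted p = 0.402). Gucy1b1 differed by −0.08, 0.01 and −0.09 in the same order, and its second probe set by −0.02, 0.14 and −0.16. Among the peptides and receptors, Nppa, the atrial natriuretic peptide precursor, differed by 0.12 in ET3x2 against S and 0.01 in ET3x1 against S, and Npr2, the receptor of C-type natriuretic peptide, by −0.06 and −0.03. Slc7a1, a cationic amino acid transporter that carries arginine, differed by −0.17 in ET3x2 against S (limma adjusted p = 0.465), whereas its second probe set gave 0.01 (limma adjusted p = 0.968). Prkg2, a cyclic GMP-dependent kinase, and Gch1, the first enzyme of tetrahydrobiopterin synthesis, were under the signal level, and Prkg1, the related kinase of smooth muscle, was not analysed here.

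Genes of the list named next were chosen after their values were seen. Mme encodes neprilysin, which degrades natriuretic peptides and is abundant in the proximal brush border. Its log2 signal was 11.28, 11.70, 11.49 and 11.45 in ET3x2 pools, 11.45, 11.56, 11.40 and 11.38 in ET3x1 pools, and 11.97, 11.85, 11.69 and 11.79 in S pools. The ET3x1 pools lay below all S pools, as in 2.14% of tested RAE230A probe sets, and 1 ET3x2 pool, J, was above the lowest S pool. The difference was −0.34 in ET3x2 against S (SE 0.093, limma adjusted p = 0.192) and −0.38 in ET3x1 against S (limma adjusted p = 0.149). Leaving out 1 pool moved the first between −0.28 (without pool I, limma adjusted p = 0.521) and −0.42 (without pool J, limma adjusted p = 0.0476), and of these omissions only that of pool J passed. Without pools A, B and J it was −0.33 (limma adjusted p = 0.352).

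Guca2b, the uroguanylin precursor, differed by 0.27 in ET3x2 against S (limma adjusted p = 0.264), and Furin, a protease that processes peptide precursors, by 0.26 (limma adjusted p = 0.432). Pde9a, a cyclic GMP phosphodiesterase, differed by 0.18 in ET3x2 against S (limma adjusted p = 0.41). Asl, argininosuccinate lyase, which acts after Ass1, differed by 0.25 in ET3x2 against ET3x1 (limma adjusted p = 0.183), and a second probe set by 0.24 (limma adjusted p = 0.419). Nos1ap, an adaptor of the neuronal synthase, differed by −0.22 in the same comparison (limma adjusted p = 0.193), whereas its second probe set gave −0.06 (limma adjusted p = 0.773).

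**Figure D4:**
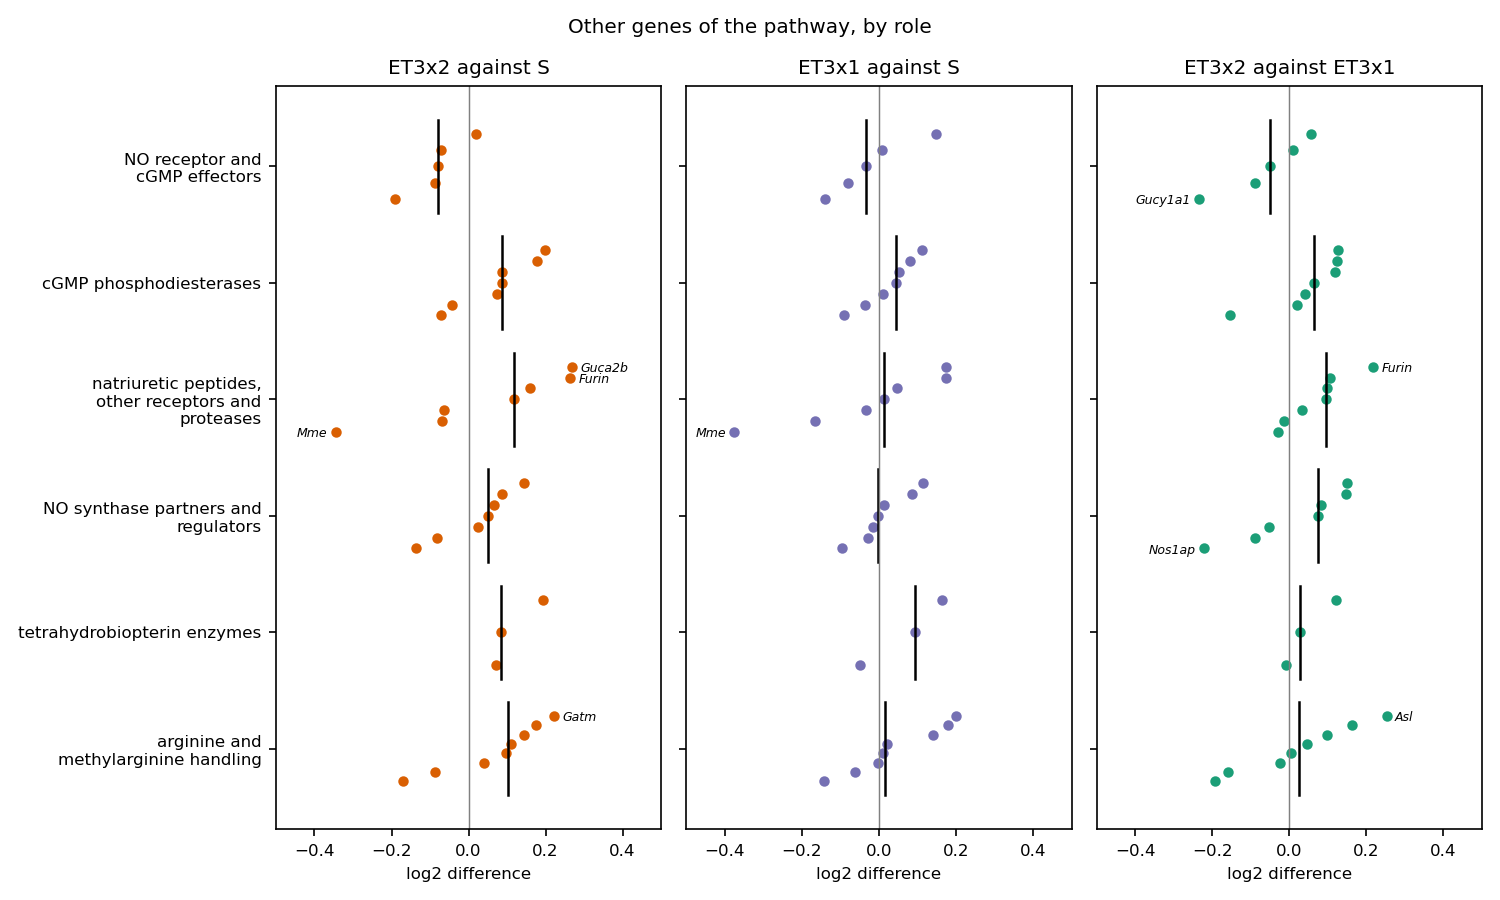
Log2 difference (horizontal axis) of the 37 tested genes of the list in the 3 comparisons, grouped by role, with points for genes and a black line for the median of each role; genes beyond 0.2 in size are named. By the counted probe sets, Mme lies lowest in both congenic strains against S, and no gene had an adjusted p under 0.05.

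For each tested gene the RAE230A gene with the highest Pearson correlation over the 12 pools was listed, as a description over pools that share arrays and strains. Each r is the maximum over all other genes tested on RAE230A, so a high value was selected for and shows no link by itself. Ddah1 was closest to Icam1, a leukocyte adhesion molecule of endothelium (r = 0.93), whose log2 signal ranged from 9.73 to 10.04 in ET3x2, 9.73 to 9.93 in ET3x1 and 10.03 to 10.15 in S. Ass1 was closest to Slc66a2 (r = 0.96), Arg2 to Comtd1 (r = 0.96), Ddah2 to Septin9 (r = 0.95), Nos2 to S1pr2 (r = 0.93), Pde5a to Hap1 (r = 0.91) and Npr1 to Rnf207 (r = 0.87).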

How the data were processed

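Total RNA of pooled left kidneys was converted to biotin-labelled cRNA and hybridised to RAE230A and RAE230B, 24 arrays in all, per the labels' protocols. The deposited tables were used as given; their values were read as log2 signal from their range, and the authors' summarisation and normalisation are not given in the sources used here. Column medians on RAE230A ran from 8.49 to 8.60. Every column matched a sample.

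Gene symbols came from the platform annotation. Control probe sets and those under the 30th percentile of mean signal of each array were left out. Strains were compared with limma 3.58.1 in R 4.3.3 (1 fit of all 12 pools per array, 3 contrasts, no covariate, Benjamini-Hochberg adjustment within array and contrast), after testing on simulated data. P-values rest on the spread among pools within strains, estimated over all 12 pools and moderated across probe sets. Having 4 pools a strain limits precision, and pooling hides the spread between rats. The fit used 1 spread for all strains, although pools held 2 rats in S and 3 in the congenic strains. Genes were named as members, as fixed pathway genes, as nearest patterns, or after their values were seen. The last were pathway genes with a probe set at an unadjusted limma p under 0.05. The members, lists and tests were chosen with earlier results of these data known. The alternatives were quantile normalisation, other filters, a constant prior, array weights, the actin 5′ to 3′ difference as a covariate, and leaving out pools; those for pathway genes were added after seeing the data.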

Additional observations from a re-analysis of the deposited data

Results flagged for a closer look

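In 4 of 51 groups of 4 pools, 1 pool stood apart from the other 3 by Dixon's test at the 95% level, which by chance marks about 1 in 20 groups. Ddah2 read 9.40 in ET3x1 pool F, against 8.82 to 8.88 in the other ET3x1 pools. The other cases were all S pool D: Nos2 at 9.95, against 9.71 to 9.75 in the other S pools, Npr3 at 6.65, against 6.89 to 6.93, and Gch1 at 6.25, against 6.38 to 6.41. Npr3 and Gch1 were under the signal level required for the test. On RAE230A, pool D also had the greatest loss of 5′ against 3′ actin signal (−2.10) and the lowest median signal (8.49). Whether this bears on its values was not tested.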

How the results depend on the processing

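None of the 7 tested genes was called under an alternative that tested it, with a lowest adjusted p of 0.0798, and 381 of their 396 values kept their sign; Pde5a was not tested with the filter at the 50th percentile. Nos1, Nos3 and Npr3 were tested only with no filter, where none was called (lowest adjusted p 0.202). All probe sets called numbered 75 in ET3x2 against S, 96 in ET3x1 against S and 323 in ET3x2 against ET3x1. With array weights they numbered 419, 164 and 1658, and with the actin covariate 432, 215 and 502. Without pools A, B and J, 27 were called in ET3x2 against S. Leaving out 1 pool gave 19 to 170, 40 to 122 and 134 to 485. Of the pathway list, array weights called 1 gene in ET3x2 against S (Mme) and 3 in ET3x2 against ET3x1 (Gucy1a1, Nos1ap, Asl), the actin covariate 1 in ET3x2 against S (Mme), and leaving out 1 pool 0 to 1. Signs turned with array weights for Nos2 in ET3x2 against S (0.015), Ass1, Pde5a and Slc7a1 in ET3x1 against S (−0.0062, 0.0116 and −0.0004) and Pde5a in ET3x2 against ET3x1 (−0.023). They turned with the actin covariate for Nppa (−0.0275) and Npr2 (0.0374) in ET3x1 against S. Without pools A, B and J they turned for Arg2 (−0.0243), Nppa (−0.0773) and Npr2 (0.082) in ET3x1 against S and for Npr2 (0.0281) and Npr3 (0.0735) in ET3x2 against S. Leaving out 1 pool, the range held both signs in ET3x2 against S for Nos2 (−0.0544 to 0.0249), Pde5a (−0.13 to 0.0374), Npr2 (−0.147 to 0.0008) and Npr3 (−0.0681 to 0.0256). It did so in ET3x1 against S for Ass1 (−0.042 to 0.0822), Pde5a (−0.253 to 0.0319), Gucy1b1 (−0.0411 to 0.0713), Nppa (−0.0301 to 0.0793), Npr2 (−0.116 to 0.0317) and Slc7a1 (−0.0125 to 0.0617). In ET3x2 against ET3x1 it did so for Nos1 (−0.02 to 0.119), Ddah1 (−0.0169 to 0.0631), Pde5a (−0.082 to 0.202) and Npr2 (−0.074 to 0.0216). The cause of these changes was not tested. No paired analysis was possible because the pool letters differ between strains. Signal near background limits Nos1, Nos3 and Npr3.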
